A study of Mus musculus with 48 samples.

Results

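The genes described here are 38 interferon-stimulated genes of mouse epidermis, the outer, keratinocyte-rich layer of the skin. They were chosen by symbol from a list of antiviral and signalling genes that interferons are known to induce, and each symbol was matched to its row among the 24996 Entrez gene identifiers of the count table. All 38 were found. The measurement was total RNA sequencing of cells freed from the epidermis of 2 ages, called adult (18 to 25 weeks) and aged (80 to 90 weeks). Samples were taken at 6 points of the light-dark cycle, ZT0, ZT4, ZT8, ZT12, ZT16 and ZT20, where ZT0 is the start of the light phase. With 4 libraries for each age and time, the 12 groups gave 48 libraries, 24 per age. No genotype, treatment, strain or sex is given in the sources used here, and a difference in genetic background between the ages cannot be told apart from age.

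Interferons are secreted proteins that warn neighbouring cells of infection. Type I and type III interferons bind receptors that activate the kinases JAK1 and TYK2, and these phosphorylate STAT2, which acts with IRF9 in a complex that binds the interferon-stimulated response element in promoters. The genes switched on encode sensors of foreign RNA, enzymes that block viral replication, and regulators such as IRF7, which raises further interferon production, and USP18, which dampens the receptor. In healthy epidermis, keratinocytes, Langerhans cells and resident T cells all carry interferon receptors.

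The deposited values were raw counts, and total counts per library ran from 40761084 to 49229498. CPM below is the depth-scaled count of edgeR, taken over the effective library size after TMM scaling (trimmed mean of M values). Of the 38 genes 37 passed the filter on low counts. The exception was Oasl1, an inactive relative of the 2'-5' oligoadenylate synthetases, with 0 reads in 25 libraries and at most 3 in any. A gene with 0 reads could still hold up to 3 counts in a library, counting error only. Keratinocyte markers (Krt5, Krt14, Krt1, Krt10, Dsg3 and Col17a1) summed to between 10843 and 17330 CPM in the 48 libraries. Whether the 4 libraries of a group are 4 animals is not stated in the labels. The p-values then cover the spread between libraries, which may be technical. In bulk samples fewer cells of a type and less RNA per cell cannot be told apart.

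A pair of libraries and a single one need naming before the results. The aged ZT20 libraries 1 and 2 were nearest to each other of all pairs of libraries within a group, with a root mean square log2 difference of 0.376 over all genes, and differed from the other aged ZT20 libraries by 0.457 to 0.574. The next nearest pair, the aged ZT0 libraries 3 and 4, was at 0.379, so the value of the ZT20 pair did not stand apart. As a check, the called genes and the median of the list at ZT20 are given with and without the aged ZT20 libraries 1 and 2. Further values at ZT20 (uncalled genes, marker sums and pathway lists) are given with all libraries only. The adult ZT0 library 1 held the highest value of all 48 libraries in 15 of the 37 genes tested, among them Irf7, Isg15, Ifit1, Mx1, Oasl2, Rsad2 and Rtp4. No other library was highest in more than 4. The adult ZT12 library 3 was the lowest in 8 genes. The mean of the 37 genes, each as log2 CPM less its average over all libraries, was 0.72 in the adult ZT0 library 1, 0.34 in the next highest (aged ZT20 library 3) and -0.48 in the adult ZT12 library 3.

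Promoters are shown because the list is defined by a shared response that acts through a known DNA element. RefSeq (GRCm38.p6) gave a window from 250 bases before to 50 bases after the start for 28 of the 38 genes. The core of the interferon-stimulated response element, searched as GAAA, any bases NN and GAAA again on both strands, was in the window of 14 of these 28 genes, against 3.99% of the 27018 genes with a window. The gamma-activated sequence, searched as TTCNNNGAA, was in 8 of 28 (28.6%), against 9.55% of all genes. The 250 bases before the start are printed for 4 genes that hold the core there and for Irf7 and Xaf1, which lead the age differences below by size and by p, and in whose windows these letters were not found. Capitals mark that core on either strand, and overlapping matches form 1 run.
Ifit1 (chr19:34640639-34640888, plus strand): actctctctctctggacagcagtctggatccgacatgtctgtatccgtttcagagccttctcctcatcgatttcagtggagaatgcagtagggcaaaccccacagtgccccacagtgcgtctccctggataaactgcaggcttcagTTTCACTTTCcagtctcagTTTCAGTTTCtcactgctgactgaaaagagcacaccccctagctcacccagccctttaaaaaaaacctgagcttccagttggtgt
Isg15 (chr4:156200819-156201068, minus strand): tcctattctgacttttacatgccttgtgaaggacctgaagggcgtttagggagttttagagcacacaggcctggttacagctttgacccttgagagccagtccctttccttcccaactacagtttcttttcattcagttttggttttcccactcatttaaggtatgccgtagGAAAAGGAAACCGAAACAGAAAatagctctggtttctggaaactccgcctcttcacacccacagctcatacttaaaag
Oas3 (chr5:120777660-120777909, minus strand): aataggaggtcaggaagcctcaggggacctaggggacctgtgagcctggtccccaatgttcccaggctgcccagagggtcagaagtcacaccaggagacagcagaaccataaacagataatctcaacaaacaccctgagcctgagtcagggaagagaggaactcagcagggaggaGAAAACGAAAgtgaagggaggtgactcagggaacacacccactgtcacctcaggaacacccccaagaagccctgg
Bst2 (chr8:71537473-71537722, minus strand): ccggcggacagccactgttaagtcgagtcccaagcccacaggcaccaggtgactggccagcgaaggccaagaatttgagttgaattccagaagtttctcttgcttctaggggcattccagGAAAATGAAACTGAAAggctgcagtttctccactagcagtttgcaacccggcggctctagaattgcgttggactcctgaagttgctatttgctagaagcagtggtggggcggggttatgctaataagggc
Irf7 (chr7:141266425-141266674, minus strand): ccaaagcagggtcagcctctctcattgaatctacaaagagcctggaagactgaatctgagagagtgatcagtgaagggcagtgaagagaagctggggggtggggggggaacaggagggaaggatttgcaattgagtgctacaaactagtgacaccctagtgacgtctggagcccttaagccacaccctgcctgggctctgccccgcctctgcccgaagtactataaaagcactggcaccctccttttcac
Xaf1 (chr11:72301379-72301628, plus strand): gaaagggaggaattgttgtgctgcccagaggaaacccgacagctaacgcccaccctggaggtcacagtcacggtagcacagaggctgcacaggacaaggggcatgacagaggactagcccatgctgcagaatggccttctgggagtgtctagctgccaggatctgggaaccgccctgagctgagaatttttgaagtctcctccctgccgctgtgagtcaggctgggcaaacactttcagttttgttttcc
In Ifit1 the core was found at offsets -104 and -85 from the first transcribed base, in Isg15 at 3 overlapping places between -78 and -66, in Oas3 at -75, and in Bst2 at -130 and -124. A match is a description of letters and no evidence of binding. The printed stretches of Irf7, Oas3 and Xaf1 lie partly within the annotated genes. On their chromosomes Irf7 reaches position 141266499, Oas3 reaches 120777684 and Xaf1 begins at 72301461. Windows at other starts of these genes were not searched, so a missing match does not show that the element is absent.

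Steady levels differed widely between the genes. Levels are compared here as RPKM (CPM divided by exon length in kilobases), medians over the 48 libraries, for the 37 genes with an exon length (Mx1 had none). Ifitm3, a membrane protein that stops viruses at the endosome, was highest at 61.3, followed by Ifi27, a small mitochondrial protein, at 35.0. Eif2ak2, which encodes the kinase PKR that halts translation on double-stranded RNA, stood at 10.3. The transcription factors Irf1 and Irf9 stood at 8.66 and 7.90. At the other end, Oasl1, which did not pass the filter, was at 0. Among the genes tested the lowest was Rsad2 at 0.024, which encodes viperin, a radical enzyme that makes a chain-terminating nucleotide. Ifi44 stood at 0.029, the Z-form nucleic acid sensor Zbp1 at 0.061 and Ifit2 at 0.077. Rsad2 was the gene among those tested with 0 reads in some libraries, 4 of 48.

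With age, over all 6 times together, 7 of the 37 genes rose and 1 fell. That is 21.6% called, against 33.1% of all 18044 genes tested (17.0% higher and 16.2% lower). The median log2 fold change of the list was 0.03, and 0.01 over all genes, and 24 of 37 were above 0, against 52.2% of all genes. The share of the list that was called was below that background. The genes that passed were Xaf1, Eif2ak2, Dhx58, Oas3, Irf7, Herc6 and Parp14 upward and Trim25 downward, and 11 of the 37 had an unadjusted p under 0.05. Adjusted p-values are from edgeR's quasi-likelihood test over all genes, with n = 24 libraries per age.

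**Figure D1:**
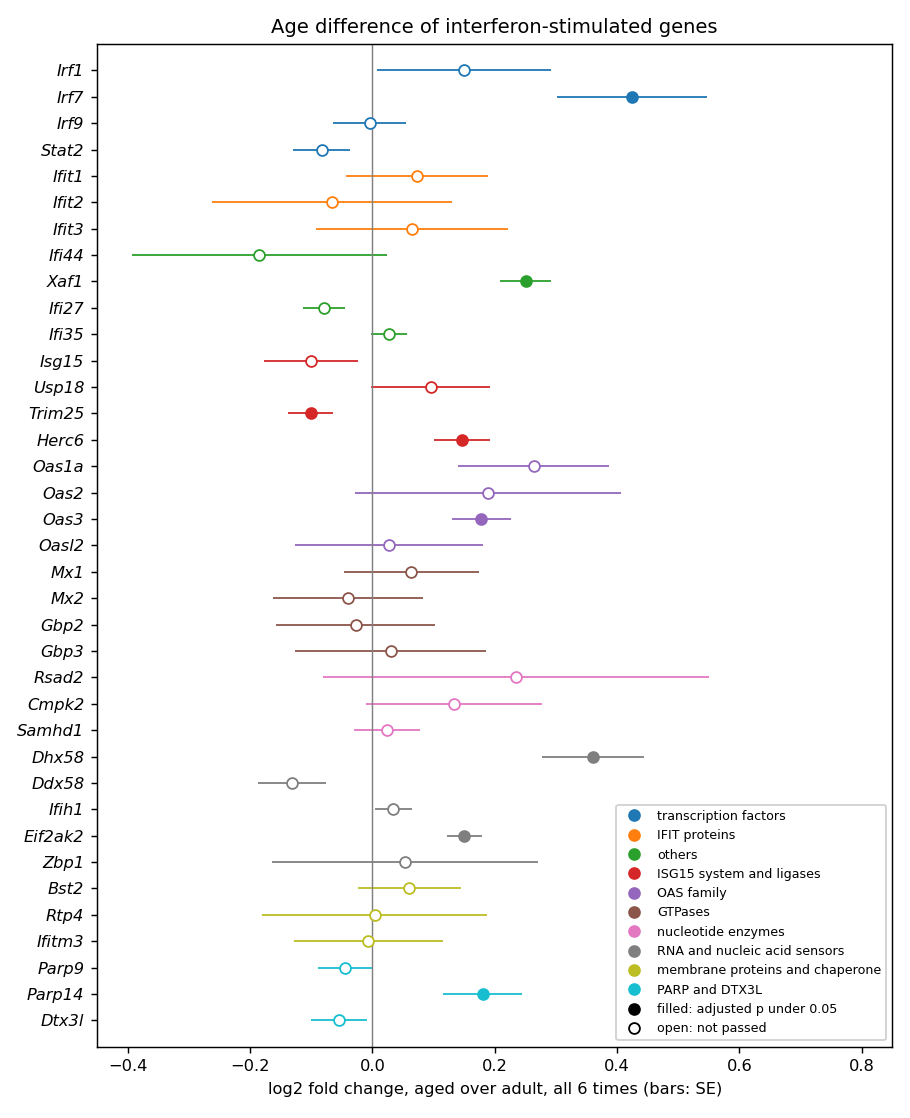
Log2 fold change of aged over adult epidermis over all 6 times for the 37 genes tested, with the standard error as bars, coloured by role. Filled points passed the test at an adjusted p under 0.05: 7 lie above 0 and 1, Trim25, below.

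Among the transcription factors, Irf7 rose. Its adult libraries ran from 2.43 to 8.52 CPM with a median of 3.59, and its aged libraries from 2.86 to 8.20 with a median of 5.54. The ranges overlapped almost wholly, but 20 of 24 aged libraries lay above the adult median. The log2 fold change was 0.42 (SE 0.12; adjusted p = 0.00752), and 0.28 without the ZT20 libraries, where it no longer passed (adjusted p = 0.167). Irf9 and Stat2, partners in the complex that carries the type I signal, had fold changes of -0.00 (SE 0.060; adjusted p = 0.967) and -0.08 (SE 0.047; adjusted p = 0.175). Irf1, which responds chiefly to interferon gamma, had 0.15 (SE 0.14; adjusted p = 0.441) and varied most between libraries of a group among these 4, with a within-group SD of 0.52 on the log2 scale. Irf1 overlaps the gene Gm17334, so reads may be shared.

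Of the 5 sensors of foreign nucleic acid, 2 rose. Dhx58 encodes LGP2, a relative of RIG-I that tunes its signal. It ran from 0.661 to 1.48 CPM with a median of 0.906 in adult and from 0.831 to 2.06 with a median of 1.20 in aged libraries. Of the aged libraries 22 of 24 lay above the adult median, and the aged mean was higher at 6 of 6 times (log2 fold change 0.36, SE 0.083; adjusted p = 0.00101). Eif2ak2 ran from 42.1 to 58.3 CPM, median 48.8, in adult and from 47.8 to 65.0, median 54.5, in aged libraries. It too was higher at 6 of 6 times, in 23 of 24 libraries relative to the adult median, by a small step of 0.15 (SE 0.029; adjusted p = 0.000146). Ddx58, which encodes RIG-I, had -0.13 (SE 0.055; adjusted p = 0.0625), and Ifih1, which encodes MDA5, 0.03 (SE 0.030; adjusted p = 0.391). Zbp1 had 0.05 (SE 0.22; adjusted p = 0.876). Whether the change of Dhx58 differed from that of Ddx58 and Ifih1 was not tested.

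Xaf1, a partner of the XIAP caspase inhibitor that favours cell death, gave the smallest adjusted p. Its adult libraries ran from 10.1 to 15.6 CPM with a median of 13.1, and its aged libraries from 13.1 to 19.4 with a median of 15.1. The lowest aged library lay at the adult median, 23 of 24 were above it, and the aged mean was higher at 6 of 6 times (0.25, SE 0.041; adjusted p = 1.48e-05). It passed under each alternative and with any 1 library left out. The other genes of mixed function did not pass: Ifi27 had -0.08 (SE 0.035; adjusted p = 0.075), Ifi35 0.03 and Ifi44 -0.19.

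Of the 2'-5' oligoadenylate synthetase family, whose products switch on the RNA-cutting enzyme RNase L, Oas3 rose. It ran from 7.02 to 11.8 CPM, median 9.23, in adult and from 8.70 to 15.01, median 10.4, in aged libraries, with 21 of 24 aged libraries above the adult median. The fold change was 0.18 (SE 0.048; adjusted p = 0.00458), and 0.15 without ZT20, where it just missed the threshold (adjusted p = 0.0565). Oas1a had 0.26 (SE 0.12; adjusted p = 0.0944) and shares near-identical sequence with Oas1g, so how reads divide between them is uncertain. Oas2 had 0.19 (SE 0.22) and Oasl2 0.03 (SE 0.15). All 4 family members tested were above 0, and 1 passed.

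The ISG15 system attaches the ubiquitin-like protein ISG15 to other proteins. Herc6, the main ISG15 ligase in mice, ran from 5.90 to 8.77 CPM, median 7.32, in adult and from 6.70 to 9.49, median 8.12, in aged libraries. It was higher at 6 of 6 times (0.15, SE 0.045; adjusted p = 0.0121). Trim25, the ubiquitin ligase that activates RIG-I, ran from 29.1 to 40.5 CPM, median 34.0, in adult and from 26.6 to 38.7, median 32.0, in aged libraries. It was lower at 6 of 6 times by a fold change of -0.10 (SE 0.037; adjusted p = 0.0312), but the adjusted p was above 0.05 when 1 of 8 libraries was left out, and when ZT20 was (0.0578). Isg15 itself had -0.10 (SE 0.077; adjusted p = 0.327) and the ISG15 protease Usp18 0.10 (SE 0.097; adjusted p = 0.475).

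Parp14, a mono-ADP-ribosyltransferase, rose from an adult median of 33.3 CPM (24.8 to 50.7) to an aged median of 38.7 (23.98 to 47.2). Its highest library was adult and its lowest aged, although 21 of 24 aged libraries lay above the adult median (0.18, SE 0.065; adjusted p = 0.0292). Without ZT20 the fold change was 0.11 and did not pass (adjusted p = 0.313), nor did it without the aged ZT16 library 4 (adjusted p = 0.0513). Parp9 and Dtx3l, which form a complex and overlap each other head to head on chromosome 16, had -0.04 and -0.05.

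The classical effectors did not pass. Ifit1, Ifit2 and Ifit3, which bind viral RNA ends, had 0.07, -0.07 and 0.07 (lowest adjusted p = 0.661). The GTPases that trap viral capsids or attack microbial vacuoles, Mx1, Mx2, Gbp2 and Gbp3, lay between -0.04 and 0.06. Bst2 (tetherin), Ifitm3 and the chaperone Rtp4, which overlaps Masp1, lay between -0.01 and 0.06. The nucleotide enzymes Rsad2, Cmpk2 and Samhd1 had 0.23 (SE 0.31), 0.13 (SE 0.14) and 0.02 (SE 0.054). A p that misses the threshold does not show equal levels: the standard errors of the scarce genes Rsad2, Zbp1, Ifi44 and Oas2 were between 0.21 and 0.31, which is more than the changes of Eif2ak2, Herc6, Oas3, Parp14 and Trim25 that passed.

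Cell type markers were summed in the same libraries. The Langerhans cell list (9 markers) summed to between 56.1 and 442 CPM in adult and between 43.8 and 430 in aged libraries, the T cell list (10 markers) to 32.8 to 131 and 37.7 to 137, and the list of macrophages and monocytes (7 markers) to 7.49 to 23.3 and 8.25 to 23.1. Medians were 183 and 171 for Langerhans cells, 74.8 and 77.8 for T cells and 12.3 and 16.2 for macrophages and monocytes. The last sum was higher in aged libraries although 3 of its 7 markers had a fold change above 0 and their median was -0.28. The ranges overlapped in all 3 lists and no marker was at 0 in every library. Over all times 0 of 9 Langerhans cell markers were higher and 1 lower, 1 of 10 T cell markers was higher, and of the 7 macrophage and monocyte markers 1 was higher and 1 lower. Among all genes tested 17.0% were higher and 16.2% lower.

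The age difference was next taken at each time, with 4 libraries per age. At ZT20 5 genes rose and 0 fell, that is 13.5% of the 37 against 20.0% of all genes (9.54% higher, 10.5% lower). At ZT0 1 rose and 1 fell, where 4.46% of all genes were called (2.44% higher, 2.02% lower). At ZT8 1 rose (2.19% of all genes called, 1.03% higher), and at ZT16 1 rose (1.97% called, 1.09% higher). At ZT4 and ZT12 0 passed in edgeR (0.632% and 1.1% of all genes called), with 1 gene at each of those times at an unadjusted p under 0.05. The median of the list was 0.17 at ZT20, where 29 of 37 were above 0, and -0.12 at ZT0, where 8 were. All genes together had medians of 0.02 and -0.01 at these times. The ZT0 value rested on the adult ZT0 library 1: without it the median was 0.00, with 20 of 37 above 0. It was -0.05 without the aged ZT0 library 2 and -0.07 without the aged ZT0 library 4. Other exclusions took it further from 0, to -0.18 without the adult ZT0 library 2 and -0.17 without the aged ZT0 library 1. At ZT20 the median was 0.20 without the aged libraries 1 and 2, with 27 of 37 above 0, and 0.29 without the aged library 4. It fell to 0.14 without the aged library 2 alone and to 0.16 without the aged library 3 alone.

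**Figure D2:**
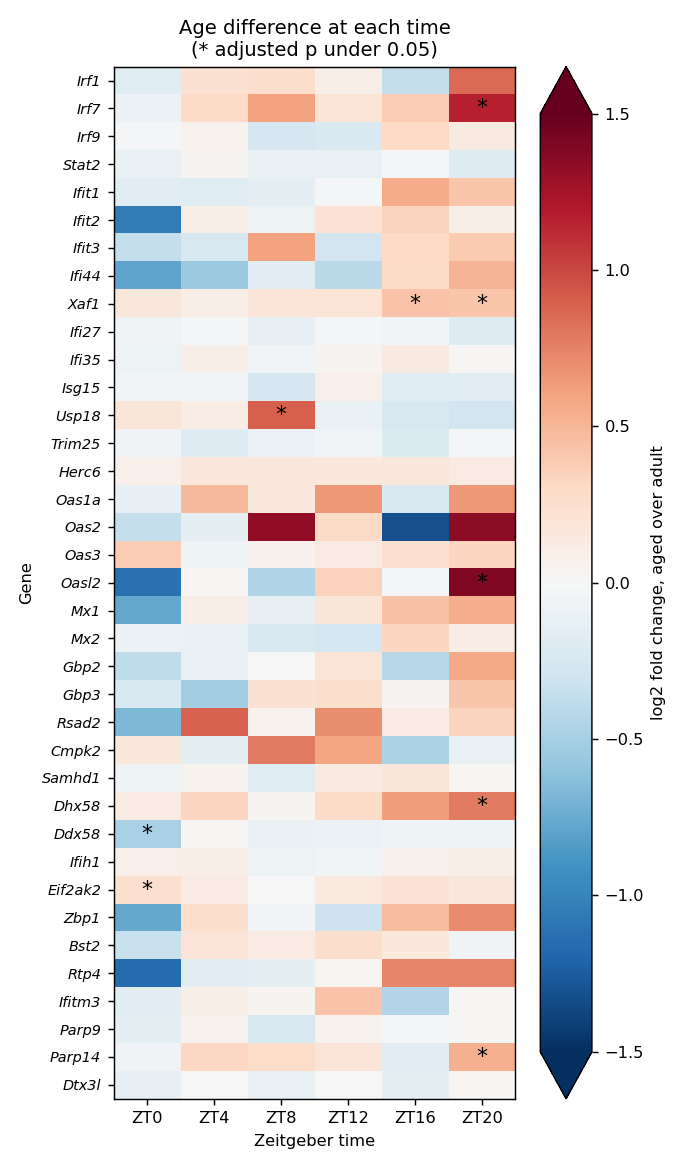
Log2 fold change of aged over adult at each Zeitgeber time for the 37 genes tested (rows, in the order of their roles); asterisks mark an adjusted p under 0.05. The ZT20 column is mostly red (29 of 37 above 0) and the ZT0 column mostly blue (8 of 37 above 0, but 20 of 37 without the adult ZT0 library 1).

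At ZT20 Irf7 stood at 2.43, 2.68, 4.14 and 3.95 CPM in the adult libraries 1 to 4 and at 7.91, 7.70, 7.13 and 6.79 in the aged. The lowest aged library was above the highest adult one, and the log2 fold change was 1.16 (SE 0.30; adjusted p = 0.00722). Without the aged ZT20 libraries 1 and 2 it was 1.07 and did not pass (adjusted p = 0.0928), with 2 aged libraries left. Markers moved at the same time. Macrophage and monocyte markers summed to 7.98 to 15.3 CPM in adult and 19.5 to 23.1 in aged ZT20 libraries, without overlap. Of these 7 markers 4 had a fold change above 0 (median 0.43), with 1 called higher and 0 lower. Langerhans cell markers summed to 88.8 to 248 and 123 to 402 CPM, with 8 of 9 above 0 (median 0.97, 0 called). T cell markers summed to 39.7 to 82.5 and 66.6 to 116 CPM, with 10 of 10 above 0 (median 0.40, 1 called, higher). The Langerhans cell and T cell sums overlapped between the ages. The part of these markers in the results at ZT20 was not tested.

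Oasl2 was at 1.23, 1.04, 0.765 and 2.11 CPM in adult and at 2.78, 3.01, 5.32 and 2.34 in aged ZT20 libraries. The groups did not overlap, the log2 fold change was 1.39 (SE 0.38; adjusted p = 0.00939), and Oasl2 was the gene that still passed without the pair of aged libraries (1.57; adjusted p = 0.0464). Xaf1 was at 11.9, 11.5, 12.1 and 12.6 CPM in adult and at 17.8, 16.7, 14.4 and 14.9 in aged libraries. Here too the groups were apart (0.41, SE 0.10; adjusted p = 0.00493), but without the pair, which held the higher aged values, the change was 0.29 (adjusted p = 0.173).

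Parp14 was at 33.0, 27.7, 28.3 and 35.9 CPM in adult and at 43.3, 44.7, 45.1 and 47.2 in aged ZT20 libraries, again without overlap (0.53, SE 0.16; adjusted p = 0.0169; 0.56 and adjusted p = 0.0972 without the pair). It did not pass without the adult ZT20 library 2 either (adjusted p = 0.0633). Dhx58 was at 0.905, 0.747, 0.662 and 1.19 CPM in adult and at 1.49, 2.06, 1.15 and 1.30 in aged libraries. The highest adult library exceeded the lowest aged one by a small margin (0.77, SE 0.20; adjusted p = 0.0072). The change of Dhx58 was 0.48 without the pair (adjusted p = 0.219), and it did not pass without the aged library 2 alone (adjusted p = 0.0576).

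**Figure D3:**
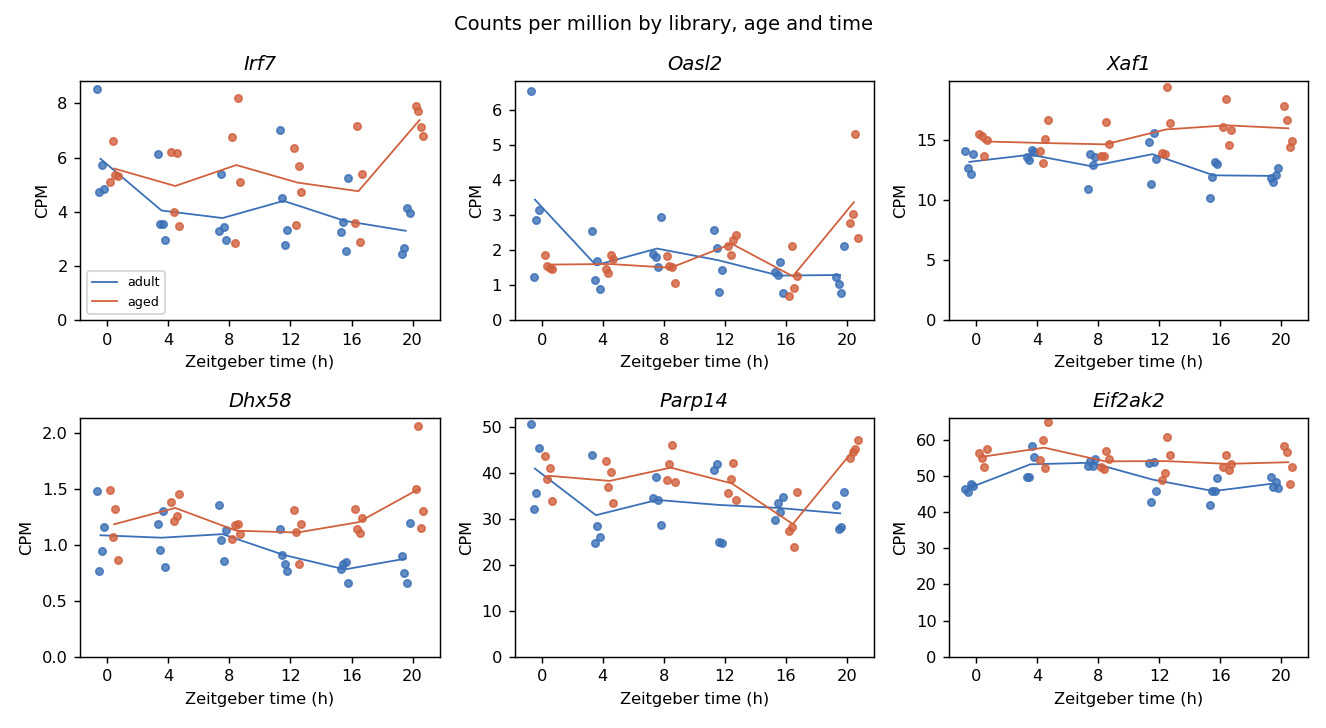
Level in CPM of 6 genes in each library (points) by Zeitgeber time in hours, with lines through the group means, adult in blue and aged in orange. At ZT20 the 4 aged libraries lie above the 4 adult ones for Irf7, Oasl2, Xaf1 and Parp14, and the adult ZT0 library 1 is the highest point for Irf7, Oasl2 and Parp14.

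In 8 genes the 4 aged ZT20 libraries were all above the 4 adult ones (Irf7, Oas1a, Oas2, Oas3, Oasl2, Mx1, Xaf1 and Parp14), against 12.3% of all genes, and in 1, Ifi27, all below, against 13.7%. Of these 8, 4 were members of the oligoadenylate synthetase family, which has 4 members among those tested. Oas2 went from 0.103, 0.208, 0.538 and 0.533 CPM in adult to 0.842, 0.619, 0.799 and 1.26 in aged libraries, a fold change of 1.35 that did not pass (SE 0.52; adjusted p = 0.0625). Oas3 had 0.32 (adjusted p = 0.0513) and Oas1a 0.64 (adjusted p = 0.118) at that time. The family did not share a direction at ZT16. There Oas2 had -1.32 (SE 0.54; adjusted p = 0.172), Oas1a -0.23 and Oasl2 -0.02, while Oas3 had 0.26, and none of them passed.

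At ZT0 Ddx58 and Eif2ak2 passed. Ddx58 was at 19.0, 13.5, 18.1 and 17.1 CPM in adult and at 11.3, 15.5, 10.6 and 10.98 in aged libraries. All aged libraries but library 2 lay below the adult ones (log2 fold change -0.48, SE 0.14; adjusted p = 0.0315). Eif2ak2 was at 46.4, 45.4, 47.9 and 47.2 CPM in adult and at 56.3, 55.1, 52.5 and 57.6 in aged libraries, a clear separation of small size (0.24, SE 0.071; adjusted p = 0.0392). Both calls were lost without single libraries of these groups, Ddx58 without any 1 of 6 and Eif2ak2 without any 1 of 7, the adult ZT0 library 1 among both. Oasl2 had -1.12 at ZT0 (SE 0.37; adjusted p = 0.0711): it stood at 6.53, 1.23, 2.87 and 3.13 CPM in adult against 1.86, 1.53, 1.47 and 1.47 in aged libraries. Mx1 was lower in all 4 aged libraries without passing (-0.77, SE 0.27; adjusted p = 0.0883). Oas3 went the other way, higher in all 4 aged libraries, and did not pass either (0.38, SE 0.12; adjusted p = 0.0556). The share of all genes without overlap at ZT0 is not reported here. In the same groups Langerhans cell markers summed to 177 to 442 CPM in adult and 130 to 200 in aged libraries, with 0 of 9 above 0 (median -1.07, 0 called). Above 0 were 1 of 10 T cell markers (median -0.71), 0 of 6 dermal fibroblast markers (median -1.28) and 5 of 6 keratinocyte markers (median 0.17), with 0 called in each list. The part of these cells in the ZT0 values was not tested.

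At ZT8 the gene that passed was Usp18, at 7.76, 8.39, 8.77 and 10.3 CPM in adult and 18.4, 19.0, 12.5 and 15.8 in aged libraries. The groups did not overlap and the change was 0.90 (SE 0.24; adjusted p = 0.0374), lost without any 1 of 6 of these 8 libraries. At ZT8 all 10 T cell markers were above 0, with 1 called, and their sums were 46.5 to 80.8 CPM in adult and 52.1 to 137 in aged libraries. All 9 Langerhans cell markers were above 0 as well (median 0.94, 0 called; 78.6 to 224 and 118 to 330 CPM). Their part in the Usp18 value was not tested.

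At ZT16 Xaf1 was at 10.1, 11.9, 13.1 and 13.0 CPM in adult and at 16.0, 18.4, 14.6 and 15.8 in aged libraries, again apart (0.43, SE 0.10; adjusted p = 0.0174). It did not pass without the adult library 1 or the aged library 2 (adjusted p up to 0.105). Oas3, Dhx58, Ifi35 and Eif2ak2 were also without overlap and higher in aged at ZT16, making 5 of 37 with Xaf1, against 4.62% of all genes. Langerhans cell markers in the ZT16 libraries summed to 163 to 382 CPM in adult and 51.3 to 149.8 in aged, without overlap, and 0 of 9 were above 0 (median -1.55, 0 called). Dermal fibroblast markers summed to 2.52 to 33.9 and 3.62 to 67.8 CPM, with 6 of 6 above 0 (median 0.92, 0 called). The part of these cells in the ZT16 values was not tested.

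A joint test asked whether the age difference changed between times. In edgeR 0 of 37 genes passed, against 0.283% of all genes, with 5 at an unadjusted p under 0.05 (Oasl2, Oas2, Usp18, Mx1 and Parp14). Oasl2 had the lowest adjusted p, 0.0947, and with DESeq2 it passed (adjusted p = 0.0135). A change of the age difference between times was thus not shown for a single gene in edgeR.

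The 24 h rhythm was tested by a cosine in each age. In adult epidermis 7 of 37 genes were rhythmic (18.9%), against 14.6% of all genes. Usp18, the brake on type I receptor signalling, had the clearest rhythm. Its adult values were 29.0, 33.2, 15.3 and 23.5 CPM at ZT0, 15.9, 17.6, 14.6 and 17.1 at ZT4, 7.76, 8.39, 8.77 and 10.3 at ZT8, 12.7, 18.5, 18.0 and 15.6 at ZT12, 23.0, 18.7, 27.1 and 20.6 at ZT16, and 19.5, 21.3, 29.6 and 27.8 at ZT20. All ZT8 libraries lay below those of the other times, and the group means were highest at ZT16, ZT20 and ZT0. The log2 amplitude was 0.66 with a peak at ZT20.3, a fitted peak-to-trough ratio of 2.51 (adjusted p = 0.000174).

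Cmpk2, a mitochondrial nucleotide kinase, peaked at ZT22.7 with an amplitude of 0.70 (adjusted p = 0.00413). Its adult libraries held 2.98, 2.33, 3.18 and 2.32 CPM at ZT0, and 0.679, 1.55, 0.875 and 0.808 at ZT8. Those groups did not overlap. Bst2 peaked at ZT23.0 with an amplitude of 0.35 (adjusted p = 0.0074), from 3.04, 1.70, 2.30 and 3.19 CPM at ZT0 to 1.62, 1.90, 0.932 and 1.31 at ZT12, with overlap. These 3 genes peaked between ZT20.3 and ZT23.0, and each passed with any 1 library left out and under all alternatives run.

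The other rhythmic genes peaked between ZT2.1 and ZT7.9. Eif2ak2 (amplitude 0.11, peak ZT6.5, adjusted p = 0.0192) and Ifih1 (0.12, ZT7.9, adjusted p = 0.0196) had shallow rhythms. Ifih1 was at 51.8, 48.3, 51.5 and 57.1 CPM at ZT8 and at 44.0, 43.4, 47.0 and 37.4 at ZT16, without overlap. Ifit1 (0.41, ZT3.7, adjusted p = 0.0233) and Rtp4 (0.73, ZT2.1, adjusted p = 0.0377) leaned on few libraries. Rtp4 was at 1.39, 0.106, 0.461 and 0.547 CPM at ZT0, and its rhythm did not pass without the adult ZT0 library 1 (adjusted p = 0.169) or any of 9 other libraries, in limma or without the filter. Ifit1 did not pass without the adult ZT4 library 1 or the adult ZT16 library 1 (adjusted p up to 0.0606), and Eif2ak2 without the adult ZT4 library 3 (0.0566). Ifih1 did not pass without the adult ZT8 library 4 or the adult ZT20 library 3 (up to 0.0777).

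In aged epidermis 0 of 37 genes passed in edgeR, against 5.87% of all genes, with 5 at an unadjusted p under 0.05. Usp18 was nearest (amplitude 0.37, peak ZT22.8, adjusted p = 0.0602), and it passed in DESeq2 (adjusted p = 0.0307) and without the pair of aged ZT20 libraries (0.0118). Cmpk2 had an amplitude of 0.47 with a peak at ZT1.1 (adjusted p = 0.0999). Its aged libraries at ZT0 held 2.82, 2.71, 3.35 and 3.23 CPM, and the 20 aged libraries of other times were all below them. The test of the difference between the 2 rhythms gave 0 of 37, as it did 0 of all genes (0.0%), with 4 at an unadjusted p under 0.05 and a lowest adjusted p of 0.606 for Usp18. A loss of these rhythms with age is therefore not shown.

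**Figure D4:**
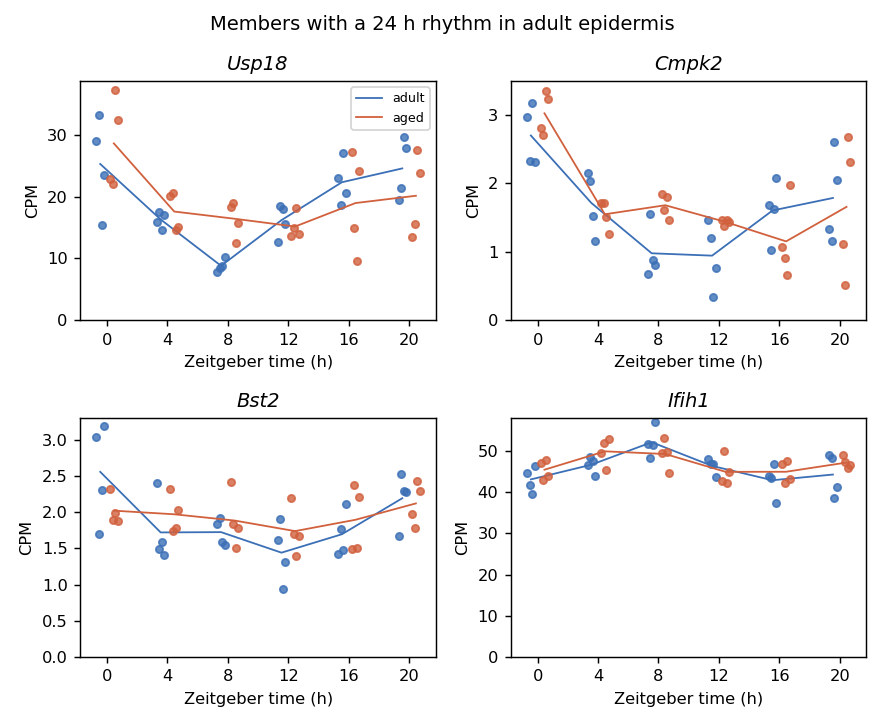
Level in CPM of 4 genes with a 24 h rhythm in adult epidermis, by Zeitgeber time in hours; points are libraries and lines join the group means, adult in blue and aged in orange. Adult Usp18 falls to between 7.76 and 10.3 CPM at ZT8, where the aged libraries hold 12.5 to 19.0.

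The genes did not all vary together between libraries of the same group. After the group mean was subtracted from log2 CPM, Irf7 was compared with each of the other 36 genes over 48 libraries, with libraries permuted within their group 100000 times. It correlated positively with 14 and negatively with 3 of the 36 at an adjusted p under 0.05. The share of all genes that would pass this test was not computed, so these counts are not shown to be particular to the list. The closest was Oas2 (r = 0.78, rho = 0.79, permutation p = 1e-05 for both, the smallest these permutations can give, adjusted p = 0.00036; r = 0.75 without the 2 libraries farthest from the median of Irf7). Mx1 followed with r = 0.69 (rho = 0.63, permutation p = 2e-05 and 9e-05, adjusted p = 0.00036 and 0.00117; 0.63 without those 2 libraries). For Parp14 r was 0.58 (rho = 0.55, permutation p = 0.00049 and 0.00121, adjusted p = 0.00294 and 0.00484; 0.60 without the 2).

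The negative side was led by Irf9 with r = -0.59 (rho = -0.59, permutation p = 0.0001 and 0.00013, adjusted p = 0.00072 and 0.00117; -0.56 without the 2 libraries). Ifih1 had r = -0.52 (rho = -0.56, permutation p = 0.00112 and 0.00083, adjusted p = 0.00504 and 0.00427; -0.56 without the 2). Samhd1, a nucleotide hydrolase that starves viruses of DNA building blocks, had r = -0.49 (rho = -0.47, permutation p = 0.002 and 0.00384, adjusted p = 0.00655 and 0.0106; -0.41 without the 2). Isg15, Ifit3, Eif2ak2, Herc6 and Oas3 lay within 0.07 of 0.

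**Figure D5:**
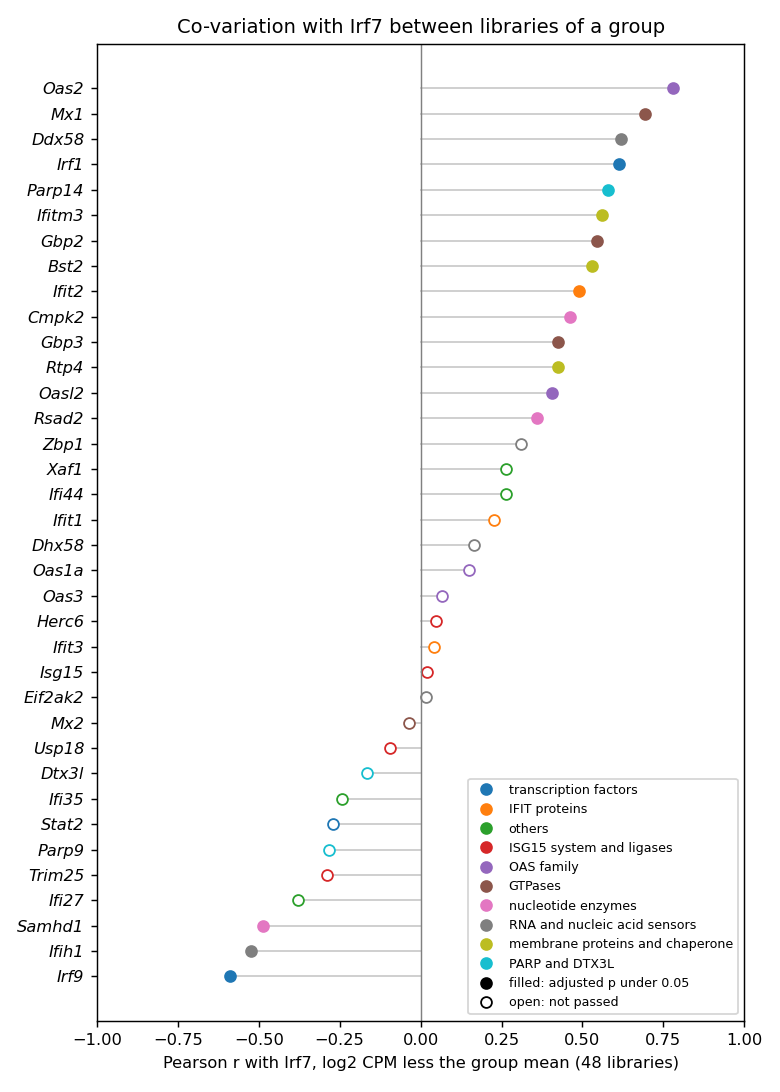
Pearson correlation of each gene with Irf7 over 48 libraries, log2 CPM less the group mean, ordered by its value and coloured by role. Filled points have an adjusted permutation p under 0.05: 14 are positive, led by Oas2 at 0.78, and 3 negative, down to Irf9 at -0.59.

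Irf7 was also compared with the summed markers of 10 cell types. Of these, 5 correlated positively and 1 negatively at an adjusted p under 0.05. Over the 48 libraries, less the group mean, Irf7 went with the summed macrophage and monocyte markers (r = 0.86, rho = 0.86, permutation p = 1e-05 for both, adjusted over 10 lists 3.33e-05; 0.84 without the 2 libraries farthest in Irf7). T cell markers gave r = 0.75 (rho = 0.77) and Langerhans cell markers r = 0.74 (rho = 0.76), each with a permutation p of 1e-05 for r and rho (adjusted p = 3.33e-05) and r = 0.71 without the 2 libraries. Keratinocyte markers gave r = -0.49 (rho = -0.47, permutation p = 0.00112 and 0.00196, adjusted p = 0.0028 and 0.00392; -0.46 without the 2). Lists of other skin cells passed too: melanocyte markers gave r = 0.51 (rho = 0.54, permutation p = 0.00202 and 0.0009, adjusted p = 0.00404 and 0.00225; 0.48 without the 2) and dermal fibroblast markers r = 0.42 (rho = 0.44, permutation p = 0.0143 and 0.00871, adjusted p = 0.0239 and 0.0145; 0.43 without the 2). The lists of plasmacytoid dendritic cells (r = 0.29, permutation adjusted p = 0.142), endothelial cells (0.22, 0.272), neutrophils (-0.06, 0.778) and B cells (-0.06, 0.778) did not pass. Of their markers, 4 of 6 for plasmacytoid dendritic cells, 4 of 5 for neutrophils and 2 of 3 for B cells passed the filter on low counts. Whether these sums follow the number of such cells was not tested, so a miss does not show that Irf7 is unrelated to them. A sum of CPM is weighted toward its most abundant markers, and correlations with single markers are not given here. The macrophage and monocyte sum was higher in aged libraries over all times although 3 of its 7 markers were above 0 (median -0.28). The part of these cells in the level of Irf7, and in its rise with age, was not tested.

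Among all 666 pairs of the 37 genes, 125 were positively and 18 negatively correlated at an adjusted permutation p under 0.05. The rate among pairs drawn from all genes was not computed, so these counts are not shown to be particular to the list. The closest pair was Parp9 and Dtx3l (r = 0.87, rho = 0.85), which overlap in the genome and may share reads. Oasl2 went with Gbp2 (r = 0.85, rho = 0.79) and with Rtp4 (r = 0.84, rho = 0.85), and Irf1 with Ifitm3 (r = 0.82, rho = 0.83). Each of these had a permutation p of 1e-05 for both measures, with adjusted p = 0.000444 for r and 0.00074 for rho, and r between 0.75 and 0.85 without the 2 libraries farthest in the first gene. Xaf1, Oas3 and Eif2ak2, which all rose with age, also went together, with r = 0.75 for Oas3 and Xaf1 (rho = 0.70, permutation p = 3e-05 for both, adjusted p = 0.000832 and 0.00125; 0.67 without the 2) and r = 0.74 for Xaf1 and Eif2ak2 (rho = 0.71, permutation p = 1e-05 and 3e-05, adjusted p = 0.000444 and 0.00125; 0.67 without the 2). The other genes that rose with age lay farther from Xaf1, with r = 0.34 for Herc6, 0.26 for Irf7, 0.06 for Parp14 and 0.04 for Dhx58. The lowest pair was Irf9 and Oas2 (r = -0.69, rho = -0.69, permutation p = 2e-05 and 3e-05, adjusted p = 0.00074 and 0.00125; -0.64 without the 2).

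The case of Irf1 and Ifitm3 shows how wide the spread within a group was. In the adult ZT12 libraries 1 to 4, Irf1 was at 59.1, 59.6, 13.1 and 16.0 CPM and Ifitm3 at 32.1, 46.1, 10.5 and 17.9. Libraries 1 and 2 were high and libraries 3 and 4 low for both genes. Langerhans cell markers in the same libraries summed to 397, 392, 56.1 and 87.6 CPM. The part of these cells in the 2 genes was not tested.

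Other genes of the pathway were read in the same fit over all times. Of 17 interferon genes listed 3 were tested, with 0 called in edgeR and 1, Ifng, at an unadjusted p under 0.05. Ifnk, an interferon of keratinocytes, was at a median of 1.05 CPM in adult and 1.15 in aged libraries (0.14, SE 0.13; adjusted p = 0.451), and Ifng at 0.105 and 0.167 CPM (0.59, SE 0.27; adjusted p = 0.083). The 13 others with a row, among them Ifnb1, held at most 8 reads in any library. Of 15 receptors and signalling proteins 4 rose (Ifnar1 by 0.09, Ifnar2 by 0.26, Ifngr1 by 0.24 and the phosphatase Ptpn2 by 0.14) and 1, Stat3, fell by 0.09, which is near the 33.1% called among all genes. Of 18 genes of nucleic acid sensing tested, Myd88 (0.13) and Trex1 (0.14) rose and Irf5 fell (-0.13), a share below that background.

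Of 51 other interferon-induced genes tested, 19 rose and 5 fell, with a median of 0.10. Over all genes 17.0% rose and 16.2% fell, with a median of 0.01. Trim30d went from a median of 0.930 to 1.98 CPM (1.04, SE 0.13) and its neighbour Trim30a from 0.679 to 1.40 (0.86, SE 0.14). The immunity-related GTPase Ifi47 rose by 0.73, Phf11d by 0.59, the secreted glycoprotein Lgals3bp by 0.56, the helicase Helz2 by 0.31, Slfn5 by 0.29 and the nuclear body proteins Sp110 and Sp100 by 0.29 and 0.28. On the other side, the interferon-induced chemokines Cxcl10 and Cxcl9 fell by 0.78 and 0.40. At ZT20 15 of the 51 rose and 2 fell, with a median of 0.39, against 9.54% higher, 10.5% lower and a median of 0.02 over all genes. These counts describe lists drawn up with results of the same libraries known, and several of the genes (Trim30, Slfn, Gbp and Phf11 copies) belong to families whose copies share reads.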

How the data were processed

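The authors deposited raw counts per gene as whole numbers, in 1 table of 24996 Entrez gene identifiers by 48 libraries. The submitters' processing notes name featureCounts, STAR 2.7.10a, Trim Galore and the build mm10 (GRCm38). Per the labels' protocols, ribosomal RNA was removed and a stranded kit was used. Which strand setting and annotation were used for counting is not given in the sources used here, so reads of overlapping genes and near-identical copies (Ifit3 and Ifit3b, Oas1a and Oas1g, the Gbp genes) are uncertain. RefSeq GRCm38.p6 named 23476 identifiers; the others held 3.66% of counts.

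From the counts, edgeR 4.0.16 (R 4.3.3) kept 18044 genes (minimum count 10, minimum total 15), used TMM scaling and fitted robust quasi-likelihood models, either of group means (residual degrees of freedom 36) or of a 24 h cosine per age (42). Tests were two-sided, p-values were adjusted by Benjamini and Hochberg over all 18044 genes and called under 0.05, and log2 CPM used a prior count of 2. The typical biological coefficient of variation was 18%. Correlations over libraries permuted libraries within groups 100000 times and were adjusted over 36 genes, 666 pairs or 10 marker lists. Exon lengths came from GENCODE. Alternatives were DESeq2 1.42.0, its size factors, limma 3.58.1, other filters, a threshold of 0.01, the replicate number as a block, fits without ZT20 and leaving out each library. The fit without the aged ZT20 libraries 1 and 2, the tests of pairs and those of marker sums were added after seeing the data. Scripts were tested on simulated data.

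The genes and all lists were chosen with earlier results of these data known. By rule, all 38 genes were accounted for, values by library were given for called genes, pathway genes past the test were named by example, and genes among the 10 most like the mean of the list were named. Some genes that these rules select are not reported here.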

Additional observations from a re-analysis of the deposited data

Results flagged for a closer look

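Of 204 checks of a group of 4 libraries, over the 17 measures whose results are reported by group, 1 had a library far from the other 3, where chance gives about 1 in 20. It was Ddx58 in the aged ZT0 library 2, at 15.5 CPM, against 10.6 to 11.3 CPM in the other aged ZT0 libraries. On the log2 scale the gap to the nearest of them was 0.838 of the range of the group, above the 95% critical value of Dixon's test for 4 samples. The lower level of Ddx58 in aged epidermis at ZT0 rests on the other 3 libraries.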

How the results depend on the processing

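Without the ZT20 libraries 4 genes rose over all times in place of 7, and 0 fell in place of 1; limma gave 2 falls (Trim25 and Ddx58) and a threshold of 0.01 gave 0. For age by time DESeq2 gave 1 gene in place of 0. A threshold of 0.01 left 3 of 7 adult rhythms, and DESeq2 gave 1 aged rhythm and the fit without the aged ZT20 libraries 1 and 2 gave 2, in place of 0. At ZT0, with 2 genes called, DESeq2 gave 4, no filter 1, a threshold of 0.01 gave 0 and the fit without ZT20 gave 1. The call at ZT8 was lost without the filter (0) and at 0.01 (0), and that at ZT16 at 0.01 (0). At ZT20 1 of 5 was left without the aged ZT20 libraries 1 and 2, where fewer samples remain.

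With any 1 library left out, the rises over all times ranged from 6 to 8, the falls from 0 to 2, age by time from 0 to 1, adult rhythms from 5 to 9, aged rhythms from 0 to 2 and rhythm differences from 0 to 0. ZT20 kept between 4 and 7 calls, ZT0 between 0 and 3, ZT8 and ZT16 between 0 and 1 each, and ZT4 and ZT12 had 0 throughout. Genes correlated with Irf7 ranged from 10 to 15 (positive) and from 3 to 4 (negative). The causes were not tested. No value changed direction among the called genes.

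Replicate numbers did not pair the samples: same-numbered libraries had a mean correlation of deviations of -0.0162 (-0.61 to 0.634), and 6 of 48 libraries were closest to their own number. With the number as a replicate block 7 genes rose, 1 fell, 7 adult and 0 aged rhythms passed, and 2, 1, 1 and 5 genes were called at ZT0, ZT8, ZT16 and ZT20. Irf7 then had 12 positive and 5 negative correlations, in place of 14 and 3. Size factors of DESeq2 in edgeR moved the higher share of all calls from 51.2% to 49.5%. Scarce genes such as Rsad2, Ifi44 and Zbp1 limit what these depths can show.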

Other observations

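The 10 genes outside the lists whose log2 CPM, less the group mean, lay closest to the mean of the 37 genes over 48 libraries included other interferon-linked genes. Mndal, of the family that senses DNA and binds chromatin, had a Pearson r of 0.74 and rose with age by 0.73 (SE 0.093; adjusted p = 1.24e-07, edgeR). Uba7, the enzyme that activates ISG15, had r = 0.74 and did not pass for age (0.16; adjusted p = 0.32). The guanylate-binding protein Gbp10 had r = 0.72, and the antiviral factor Samd9l r = 0.66, with a rise of 0.53 (SE 0.12; adjusted p = 0.00121).

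The same ranking held growth and immediate early genes. Myc, a growth regulator, had r = 0.69, and the immediate early factors Mafk and Junb had r = 0.65 and 0.64, with age rises of 0.29 and 0.28 (adjusted p = 0.000275 and 0.0215). Ccdc88b (r = 0.66) and Parp8 (r = 0.65) did not pass for age. These correlations were the highest of all genes ranked, so they are given as a description with no test.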
